A study of Mus musculus with 6 samples.

Results

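The genes described here are 9 genes of the intestinal microvillus: Vil1, Espn, Pls1, Eps8, Ezr, Myo1a, Cdhr2, Cdhr5 and Ush1c. They were chosen by name, and every called interval whose assigned gene names held 1 of these symbols was taken, whatever its region class. This gave 151 of the 42851 intervals in 6 lists, and each of the 9 genes had an interval in at least 3 lists. The intervals are places enriched for H3K9ac, the acetylated form of histone H3 at lysine 9 that is found at active promoters, measured by chromatin immunoprecipitation and sequencing. Epithelial cells were taken from the distal intestine of C57BL/6 mice that were germ-free, monoassociated with E. coli alone or conventionally housed, with 2 libraries in each of the 3 groups and 1 antibody throughout. The sources used here do not give the age of the mice, the E. coli strain, the duration of colonization or whether animals were pooled. Whether the 2 libraries of a group stem from different animals is not stated, so their spread, and any p-value made from it, may be technical.

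A microvillus is a finger of membrane around a bundle of actin filaments, and the enterocyte carries a dense field of them, the brush border. Bundling proteins (villin, espin and plastin 1) hold the filaments together, Eps8 acts at their tips, and ezrin and the motor myosin 1a tie the bundle to the membrane around it. Neighbouring microvilli are linked tip to tip by the protocadherins Cdhr2 and Cdhr5, whose tails are anchored by the scaffold harmonin, the product of Ush1c.

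The lists differed widely in length, within groups as well as between them. The germ-free lists held 4430 and 17094 intervals, the E. coli lists 1988 and 870, and the conventional lists 3117 and 15352 (replicates 1 and 2 in that order, here and below). The background coverage, which follows sequencing depth, was 0.733 and 0.579, 0.69 and 0.403, and 0.413 and 0.381 extended reads per base. The conventional libraries had a background near that of E. coli replicate 2 and under that of E. coli replicate 1, and their lists were longer than both. The part of depth in the list lengths was not tested. Each list had its own floor, the lowest fold enrichment of any interval it held. Floors were 4.04 and 3.8 (germ-free), 4.14 and 4.28 (E. coli), then 4.25 and 3.62 (conventional). A gene without an interval in a list may still carry the mark below the floor of that list. The weakest intervals of germ-free replicate 2 and conventional replicate 2 lay under both E. coli floors. Of 8 epithelial markers, the germ-free libraries called 8 and 8 at the promoter, the E. coli libraries 6 and 4 and the conventional libraries 7 and 8, while none of 8 lymphocyte and myeloid markers and none of 9 markers of stroma, muscle and endothelium had one in any library. Of 7 enterocyte markers, the germ-free libraries called 2 and 4, the E. coli libraries 3 and 2 and the conventional libraries 5 and 6, and Lct was called in none. General epithelial markers were thus also called least often in the E. coli libraries and enterocyte markers most often in the conventional ones, and the part of cell makeup in the results below was not tested. In such bulk chromatin, fewer cells carrying a mark and a weaker mark per cell cannot be told apart.

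Promoter sequences of 4 genes are shown because these genes lie at the ends of the range: Vil1, Ezr and Cdhr2 had an interval in all 6 libraries, and Espn was called in the fewest. Each window runs from 250 bases before to 50 after the start site and is read 5′ to 3′ on the gene's strand, from RefSeq's table for GRCm38.p6, the assembly behind mm10. They are Vil1 at chr1:74409134-74409433 (plus strand), Ezr at chr17:6782731-6783030 (minus strand), Cdhr2 at chr13:54701213-54701512 (plus strand) and the most downstream of the Espn start sites at chr4:152128876-152129175 (minus strand). Capitals mark matches, on either strand, to 6 motifs searched: CAATAAA (Cdx), AGATAA (zinc finger factors of the Gata family), CAAAGTC (Hnf4), GTTAAT (Hnf1), GGGCGG (Sp and Klf factors) and TATAAA (a core promoter box).
Vil1: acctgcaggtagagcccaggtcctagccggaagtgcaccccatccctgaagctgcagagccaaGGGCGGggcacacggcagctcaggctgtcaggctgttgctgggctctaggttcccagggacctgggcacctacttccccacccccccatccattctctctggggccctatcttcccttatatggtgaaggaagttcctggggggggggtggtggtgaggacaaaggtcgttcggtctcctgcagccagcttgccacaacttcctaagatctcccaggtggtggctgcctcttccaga
Ezr: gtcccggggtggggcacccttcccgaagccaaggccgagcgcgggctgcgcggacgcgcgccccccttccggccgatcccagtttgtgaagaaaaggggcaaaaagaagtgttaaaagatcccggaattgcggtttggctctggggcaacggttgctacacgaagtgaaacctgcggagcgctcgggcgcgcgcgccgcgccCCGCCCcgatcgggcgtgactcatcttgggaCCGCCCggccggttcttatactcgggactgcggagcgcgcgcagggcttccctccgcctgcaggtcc
Cdhr2: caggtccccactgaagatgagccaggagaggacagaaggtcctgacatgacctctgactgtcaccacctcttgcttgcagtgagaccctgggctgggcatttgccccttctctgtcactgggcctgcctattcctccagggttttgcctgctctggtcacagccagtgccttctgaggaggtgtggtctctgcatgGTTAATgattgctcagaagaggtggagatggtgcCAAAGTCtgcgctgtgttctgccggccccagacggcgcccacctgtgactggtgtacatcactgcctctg
Espn: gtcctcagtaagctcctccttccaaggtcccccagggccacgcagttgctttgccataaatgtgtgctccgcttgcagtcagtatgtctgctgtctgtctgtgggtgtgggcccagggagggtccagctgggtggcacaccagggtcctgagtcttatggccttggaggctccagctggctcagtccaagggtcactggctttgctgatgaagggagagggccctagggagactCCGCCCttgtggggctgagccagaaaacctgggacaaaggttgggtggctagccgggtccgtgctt

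The Vil1 window held GGGCGG once, with its first base at -187 from the start site, and the Ezr window held it at 2 places on the reverse strand, from -48 and from -17. The Espn window held it once on the reverse strand, from -16. GGGCGG occurs in 35.6% of 32817 promoter windows of this length. The Cdhr2 window held GTTAAT from -54 and CAAAGTC from -20, letters found in 7.1% and 4.44% of all windows, and no marked match overlapped another. The windows also differed in base composition. The observed over expected frequency of CpG was 1.1 in the Ezr window, against 0.175 for Vil1, 0.159 for Cdhr2, 0.184 for Espn and a median of 0.383 over all windows. A match is a match of letters only and says nothing of binding. Of the 9 genes, 8 had a promoter in the table.

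More of the 9 genes were called in the germ-free and conventional libraries than in the E. coli libraries. In the germ-free libraries 8 and 8 of the 9 genes had an interval, in the E. coli libraries 5 and 3, and in the conventional libraries 9 and 9. The same lists called 14.4% and 34.6%, 6.45% and 2.58%, and 10.6% and 37.5% of 21900 protein-coding genes, so a larger share of the 9 genes than of all genes was called in each library. The group means were 8 ± 0, 4 ± 1.41 and 9 ± 0 genes (SD, n = 2 each). The difference was -4 genes for E. coli minus germ-free, 5 for conventional minus E. coli and 1 for conventional minus germ-free. Counting only intervals of the promoter class, 7 and 8, 2 and 3, and 8 and 9 genes were called, beside 11% and 29.6%, 4.21% and 1.87%, and 9.08% and 32.8% of all protein-coding genes.

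**Figure D1:**
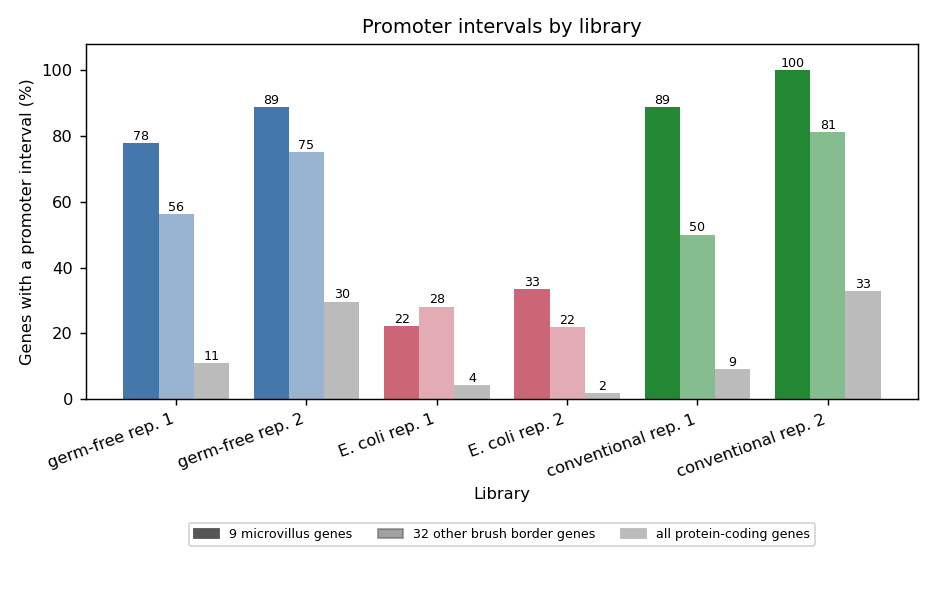
Share of genes with a promoter-class interval (%, vertical axis) in each library (horizontal axis), for the 9 microvillus genes (dark bars), 32 other brush border genes (light bars) and 21900 protein-coding genes (grey bars). The microvillus bars stand at 7 and 8 of 9 genes in the germ-free and 8 and 9 in the conventional libraries, and are low in the E. coli libraries, with 2 and 3, where the grey bars are also lowest.

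The gaps to the E. coli libraries were smaller, and the order of the other groups depended on ties, when each list was cut to its 870 most significant intervals, the length of the shortest. Then the germ-free libraries called 4 and 5 of the 9 genes, the E. coli libraries 3 and 3 and the conventional libraries 3 and 3. The same cut lists called 3.03% and 3.5%, 2.69% and 2.58%, and 3.11% and 3.63% of all protein-coding genes. Many intervals shared the lowest -log10 p kept, the least significant value, and which of them stayed was set by their position alone. With all such ties kept, 4 and 6, 3 and 3, and 7 and 4 genes were called. The shares of all protein-coding genes were then 3.22% and 4.53%, 3.01% and 2.58%, and 4.79% and 4.1%. With all of them left out, 4 and 4, 2 and 3, and 3 and 2 genes were called. The shares were 2.01% and 3.38%, 1.8% and 2.29%, and 2.62% and 2.84%. Neither treatment left lists of equal length. The tied intervals numbered 328 and 272, 338 and 95, and 580 and 272. The more significant ones numbered 599 and 839, 619 and 775, and 740 and 699. Over the cut and both treatments of ties, E. coli minus germ-free lay between -2 and -1.5 genes and conventional minus E. coli between 0 and 2.5. Conventional minus germ-free lay between -1.5 and 0.5. The 2.5 and the 0.5 came with ties kept, where the lists were unequal.

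The 9 genes differed in the libraries that called them. Vil1, Ezr and Cdhr2 had an interval in all 6 libraries, a pattern held by 3.53% of the 9700 protein-coding genes with an interval in any. Myo1a was called in 5 libraries and Espn in 3, each of them in E. coli replicate 1 but not in replicate 2. Pls1, Eps8, Cdhr5 and Ush1c had a promoter interval in both germ-free libraries but in neither E. coli library, 4 of the 7 genes with one in both germ-free libraries. Over all genes with a promoter interval in both germ-free libraries, 65.6% showed that pattern, so the count of 4 is no more than the background gives. The same 4 genes and Espn had one in both conventional and neither E. coli library, 5 of 8, beside a background of 61.9%. Against the germ-free libraries, 1 of 8 genes, Espn, was called at its promoter in both conventional libraries and neither germ-free one, beside 3.25% of all genes. No gene showed the opposite pattern, and over all genes 2.47% did.

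**Figure D2:**
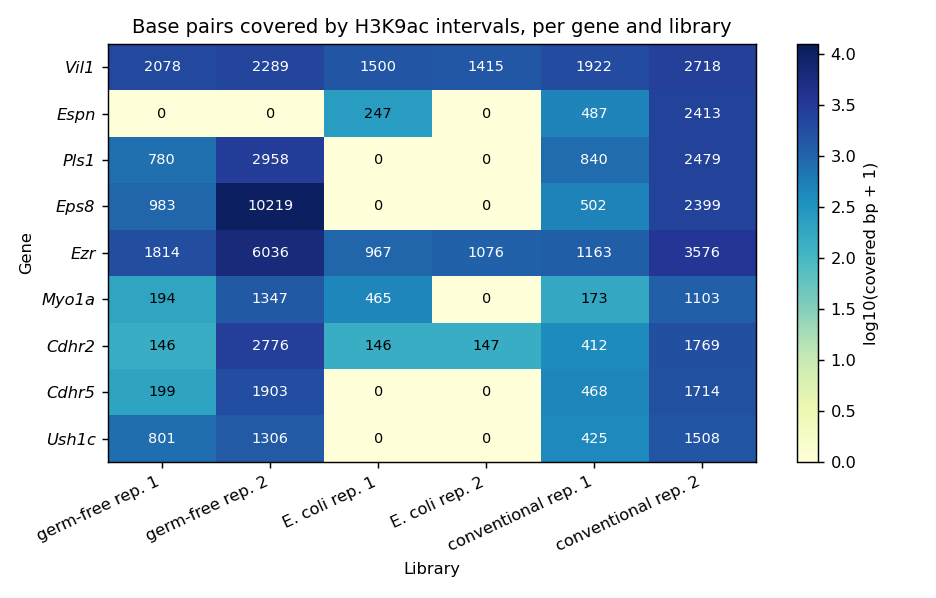
Base pairs covered by called intervals for each of the 9 genes (vertical axis) in each library (horizontal axis), printed in the cells and shaded by log10 of the covered length plus 1. The E. coli columns hold 0 for Pls1, Eps8, Cdhr5 and Ush1c, and the germ-free columns hold 0 for Espn.

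Covered length, the base pairs under a gene's intervals, carries more of the data than the presence of a call. All 9 genes together covered 7 and 28.8 kb in the germ-free, 3.33 and 2.64 kb in the E. coli and 6.39 and 19.7 kb in the conventional libraries. The germ-free and conventional values overlapped, and both E. coli values lay under them. The means were 17.9 ± 15.4, 2.98 ± 0.486 and 13 ± 9.4 kb (SD, n = 2 each). As a share of all base pairs covered in a list, the 9 genes took 0.585% and 0.436%, 0.591% and 0.897%, and 0.655% and 0.333%. On that scale neither E. coli value lay under a germ-free value, and E. coli replicate 2 was the highest of the 6 libraries. By gene, covered length was lower in both E. coli than in both germ-free libraries for 6 of 9 genes, beside 29.6% of all genes with an interval in any of these 4 libraries. Such an order needs an interval in both germ-free libraries, which 8 of the 9 genes had. Of all genes with one in both, 2415 of 2735 showed it, so 6 of 8 is no more than the background gives. Covered length was higher in both conventional than in both E. coli libraries for 8 of 9, all but Myo1a, beside 23.5%. It was higher in both conventional than in both germ-free libraries for 1 of 9, Espn, beside 1.81%. All 9 genes had an interval in both conventional libraries. Of all genes that did, 1975 of 2285 showed the former order, near the 8 of 9, and 173 of 2285 the latter. With 2 libraries a group, the exact two-sided permutation test has 3 splits and a smallest p of 0.333, so no gene could pass 0.05, and the adjusted p was 1 over all 9700 genes in each comparison.

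Among the genes of the actin core, Vil1, the actin bundler and severing protein villin (chr1:74409384-74435560, plus strand), was called in every library at high rank. Its intervals covered 2078 and 2289 bp in the germ-free, 1500 and 1415 bp in the E. coli and 1922 and 2718 bp in the conventional libraries. Both E. coli values lay under the other 4, whose groups overlapped. The fold enrichment of its strongest interval, the authors' own value, was 10.4 and 13.9, 10.1 and 9.98, and 10.6 and 15.9. Within its own list that interval ranked at the 96.2 and 98.9, 92.6 and 86.2, and 95.6 and 99.2 percentile by -log10 p, and in each library it was of the promoter class. The near edge of the promoter interval lay 59 and 136 bp downstream of the start site in the germ-free, 528 and 392 bp in the E. coli and 52 and 19 bp in the conventional libraries. The E. coli intervals thus began farther into the gene than those of the other 4 libraries, an observation made after the values were seen and given with no test. All of these intervals fell within 1 region of 2571 bp that ends 2589 bp downstream of the start site.

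**Figure D3:**
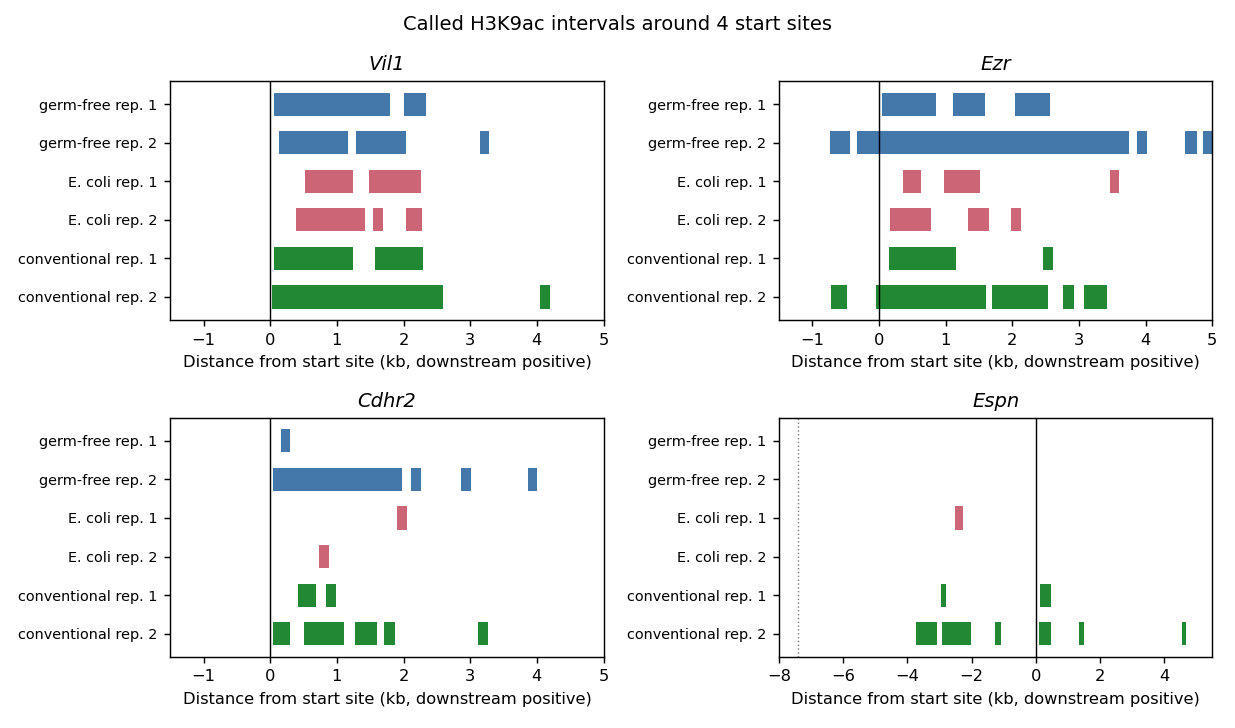
Called intervals (bars) in the 6 libraries (vertical axis) by distance from a start site in kb, downstream positive (horizontal axis), for Vil1, Ezr, Cdhr2 and the most downstream start site of Espn, with a dotted line at the next Espn start site. The promoter intervals of Vil1 share a stretch in all 6 libraries, the E. coli ones starting 528 and 392 bp from the start site, and Espn has no bar in the germ-free libraries.

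Espn, the bundling protein espin (chr4:152120331-152152414, minus strand), was the gene called in the fewest libraries. Its intervals covered 0 and 0 bp in the germ-free, 247 and 0 bp in the E. coli and 487 and 2413 bp in the conventional libraries. Both conventional libraries lay above the other 4. The promoter intervals of the conventional libraries, chr4:152128455-152128782 and chr4:152128449-152128813, nearly coincided and lay 143 to 470 and 112 to 476 bp downstream of the start site whose sequence is shown above. They had 8.49-fold and 11.6-fold enrichment and ranked at the 90.9 and 96.9 percentile of their lists. The single interval of E. coli replicate 1, with 4.73-fold enrichment at the 22 percentile, was exonic and lay from -2505 to -2259 bp relative to that start site, inside the gene. It overlapped an interval of conventional replicate 2 and none of conventional replicate 1. Within 10 kb of the gene, germ-free replicate 1 had no interval of any gene and germ-free replicate 2 had 1, assigned to another gene. With the lists cut to equal length, however ties were treated, Espn was called in both conventional libraries and in no germ-free or E. coli library. Of all genes called in both conventional libraries, 20.9% were then missing from both germ-free libraries (23.4% with ties kept, 21.1% with ties left out) and 29.1% from both E. coli libraries (37.3% and 29.8%). The background coverage was 0.733 and 0.579 in the germ-free libraries, the second of these inferred, and 0.413 and 0.381 in the conventional libraries, and its part in the Espn calls was not tested.

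Pls1, plastin 1 (chr9:95752642-95845306, minus strand), covered 780 and 2958 bp in the germ-free, 0 and 0 bp in the E. coli and 840 and 2479 bp in the conventional libraries. The germ-free and conventional ranges overlapped, and neither E. coli library had any Pls1 interval. Besides the promoter region, which begins 74 bp downstream of the start site, an intronic region at chr9:95814279-95815283, from 29996 bp downstream of the start site, was called in both germ-free and both conventional libraries. The strongest Pls1 interval lay in that intron region in germ-free replicate 1, at 5.77-fold, and in the conventional libraries, at 7.08-fold and 7.97-fold. In germ-free replicate 2 an exonic and the promoter interval were tied at 7.6-fold. The promoter interval was thus not the strongest Pls1 call in 3 of the 4 libraries that called the gene.

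Eps8, a capping and bundling protein of microvillus tips (chr6:137477245-137649397, minus strand), covered 983 and 10219 bp in the germ-free, 0 and 0 bp in the E. coli and 502 and 2399 bp in the conventional libraries. Germ-free replicate 2 stood far above the rest, with 20 of the gene's 31 intervals, and its covered length lay at the 99.9 percentile of the genes in its list. Eps8 has start sites at 137571009 and 137649285, and a region at each was called in both germ-free and both conventional libraries. Of 20 merged Eps8 regions, 16 were called in germ-free replicate 2 alone. The strongest interval had 7.5-fold and 13.9-fold enrichment in the germ-free and 6.37-fold and 9.41-fold in the conventional libraries.

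Among the genes that tie the bundle to the membrane, Ezr, the actin-membrane linker ezrin (chr17:6738131-6782780, minus strand), was called in all 6 libraries. Its intervals covered 1814 and 6036 bp in the germ-free, 967 and 1076 bp in the E. coli and 1163 and 3576 bp in the conventional libraries. Both E. coli values lay under the other 4. Its strongest interval was enriched by a fold of 8.08 and 16.5, 7.69 and 4.99, and 6.37 and 10.1. In germ-free replicate 2 a single interval of 4072 bp ran from -323 to 3748 bp relative to the start site and lay at the 99.9 percentile of length in that list. Intervals overlapped the Ezr window shown above in 3 libraries, the Cdhr2 window in 2, the Vil1 window in 1 and the Espn window in none. With the lists cut to equal length, the Ezr call in both conventional libraries depended on the ties: it was kept in both with ties kept and lost in both with ties left out.

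Myo1a, the brush border motor (chr10:127703436-127720940, plus strand), showed no order of the groups. Its intervals covered 194 and 1347 bp in the germ-free, 465 and 0 bp in the E. coli and 173 and 1103 bp in the conventional libraries. All groups overlapped. One region, chr10:127702936-127704282, was called in 5 libraries, all but E. coli replicate 2. Merged, it lay from -2320 to -974 bp relative to the start site the authors used, 127705256. Only the interval of germ-free replicate 2 crossed the outer boundary of the gene in RefSeq, 127703436. In the other libraries that called the region, the interval began 196 to 571 bp inside that boundary. The authors' class for the region was upstream in germ-free replicate 1, E. coli replicate 1 and conventional replicate 1, where the interval was also assigned to Tac2, and promoter in germ-free replicate 2 and conventional replicate 2. Conventional replicate 2 had 2 further promoter intervals, from -213 to -63 and from 683 to 989 bp. In germ-free replicate 2 the promoter call of Myo1a therefore turned on the class given to a region that other libraries also called.

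Among the genes of the links between microvilli, Cdhr2, a protocadherin of the tip links (chr13:54701463-54736662, plus strand), was called in all 6 libraries, but narrowly in 3 of them. Its intervals covered 146 and 2776 bp in the germ-free, 146 and 147 bp in the E. coli and 412 and 1769 bp in the conventional libraries. Germ-free replicate 1 equalled E. coli replicate 1, so these groups met, and both conventional values lay above both E. coli values. The fold enrichment of its strongest interval was 4.62 and 8.87, 5.33 and 6.41, and 6.37 and 7.97. The E. coli intervals, chr13:54703362-54703507 and chr13:54702196-54702342, did not overlap each other, and that of replicate 1 was intronic. A call in all 6 libraries thus did not mean a shared site.

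Cdhr5, the partner protocadherin (chr7:141269080-141276795, minus strand), covered 199 and 1903 bp in the germ-free, 0 and 0 bp in the E. coli and 468 and 1714 bp in the conventional libraries. Ush1c, the scaffold harmonin (chr7:46195350-46238490, minus strand), covered 801 and 1306 bp, 0 and 0 bp, and 425 and 1508 bp. For both genes the germ-free and conventional ranges overlapped and no E. coli library had a call. The strongest interval of Cdhr5 had 5.77-fold and 9.5-fold enrichment in the germ-free and 6.37-fold and 10.1-fold in the conventional libraries. For Ush1c these were 7.5-fold and 10.8-fold, and 4.95-fold and 9.41-fold, and all 9 of its intervals fell in 1 region, chr7:46236750-46238434, just downstream of the start site. With the lists cut to equal length, 4 of the 9 genes had an interval in both germ-free libraries, and 2 of these, Ush1c and Eps8, had none in either E. coli library however ties were treated. Over all genes called in both germ-free libraries the share was 26.6%, or 30.7% with ties kept and 24.2% with ties left out. At that length Ush1c and Eps8 were also missing from both conventional libraries, beside 15.8% of all genes. With ties kept this held for Ush1c alone (15.2%), and with ties left out for Ush1c, Eps8 and Ezr (17.6%).

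**Figure D4:**
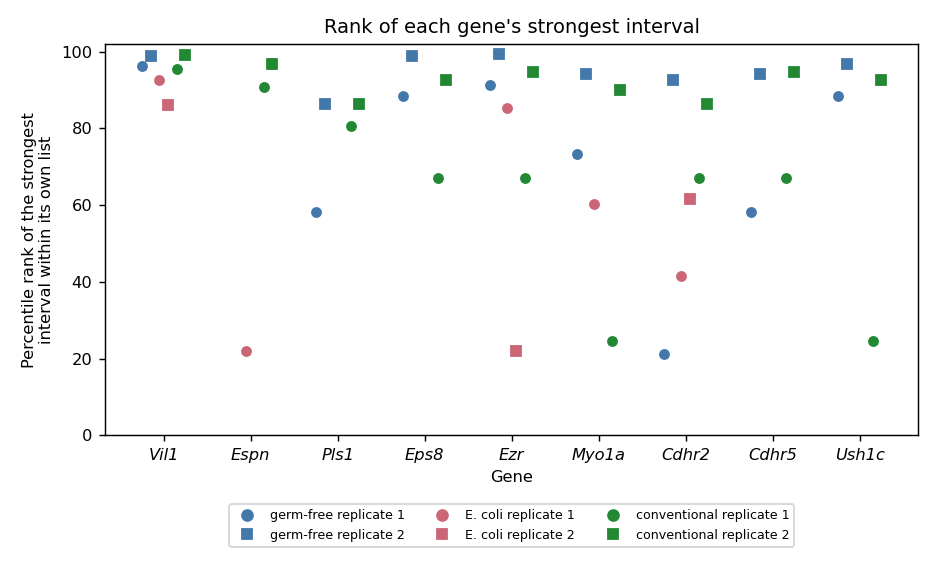
Percentile rank by -log10 p of each gene's strongest interval within its own list (vertical axis) for the 9 genes (horizontal axis), with 1 point per library, coloured by group and shaped by replicate. Vil1 lies between 86.2 and 99.2 in all 6 libraries, and the ranks show standing within a list and not change between lists.

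Most promoter-class intervals of the 9 genes lay downstream of the start site, as they did over all genes. Of 57 such intervals, 49 had their midpoint downstream and 45 lay wholly downstream, while over single-gene promoter intervals of all genes 73.6% to 86.6% had a downstream midpoint, depending on the library. Myo1a differed from that placement, with 3 of its 4 promoter-class intervals wholly upstream of the start site the authors used. That depends on the start site chosen. Counted from the gene boundary in RefSeq, these 3 ran from -500 to 846, 196 to 840 and 1607 to 1757 bp. Cdhr5 and Ezr also had promoter-class intervals wholly upstream, in germ-free replicate 2 and conventional replicate 2. The remaining member intervals were 79 intronic, 5 exonic and 10 upstream. Merged across libraries, the 151 intervals made 66 regions. Of these, 44 were called in 1 library, of which germ-free replicate 2 had 32 and conventional replicate 2 had 12, the 2 longest lists. Merged regions with an interval from all 6 libraries numbered 3, near the starts of Vil1, Ezr and Cdhr2, and for Cdhr2 the E. coli intervals in it did not overlap each other.

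Other genes of the brush border, a list of 32, were also called least often in the E. coli libraries. The germ-free libraries had a promoter interval for 18 and 24 of them, the E. coli libraries for 9 and 7 and the conventional libraries for 16 and 26. In all 6 libraries it was called for 6 of the 29 with one in any library, beside 2.69% of all such protein-coding genes. These 6 were Myo7b, the motor of the tip link complex, Slc9a3r1, a scaffold that binds ezrin, Eps8l3, a relative of Eps8, Capzb, a capping protein subunit, and the actins Actb and Actg1. Calml4, a light chain of that motor, Myo6, Stx3 and Stxbp2 had the same promoter calls in all 6 libraries as Pls1, Eps8, Cdhr5 and Ush1c. Myo5b had the promoter calls of Cdhr2, and Cobl, Myo1c, Lima1 and Cfl1 the promoter calls of Myo1a. These matches do not extend to all region classes. With every class counted, Myo5b was called in 5 libraries and Cdhr2 in 6, and Myo1c and Cfl1 in 2 and Myo1a in 5. Of the ezrin relatives, neither Msn nor Rdx had a promoter interval in any library, and the same held for Tmigd1. A promoter interval in both germ-free libraries was held by 17 of these genes, and for 8 of them neither E. coli library called 1, beside 65.6% of all genes. Both conventional libraries called 15, and 0 of these were missing from both germ-free libraries, beside 3.25% of all genes. Counting every region class, Stk10, a kinase that phosphorylates ezrin and its relatives, had an interval in both conventional libraries and in no other, and it is named here after its values were seen.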

How the data were processed

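Per the labels' protocols, the ThruPLEX kit was used for the libraries, which were sequenced on an Illumina HiSeq (single-end, 50 bp). Bowtie 1.2.0, MACS2 2.1.1.20160309 and mm10 were used, per the submitters' processing notes; an input control and the peak calling settings are not given in the sources used. The authors deposited 1 interval list per library, with summit pileup (a signal: coverage by extended reads), -log10 p and q values, fold enrichment (a ratio), region class and gene names. One deposited list (germ-free replicate 2) lacked the pileup and had a shifted header, with 14 names for 13 cells; its columns were identified and its background inferred from the values. Lines for further summits of 1 interval were merged. Background coverage was recovered from fold and pileup. Names were matched to RefSeq (10567 of 10621). Intervals, lengths and calls were computed with Python 3.11.15, pandas 2.3.3 and NumPy 2.4.6, and drawn with matplotlib 3.10.9; covered length was tested by exact permutation with Benjamini-Hochberg adjustment, and the code was tested on simulated data. Every one of the 9 genes was named. Other brush border genes were named where called at the promoter in all 6 libraries, in none, or as a member was. The members and lists were chosen with earlier results of these data known. Alternatives were stricter thresholds, equal list lengths, single-gene intervals, start-site windows, left-out libraries and the replicate block.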

Additional observations from a re-analysis of the deposited data

How the results depend on the processing

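Peak lists hold calls and not coverage, so weaker enrichment could not be compared, and 2 libraries a group allow no p under 0.333. Over the alternatives, 120 values of group comparisons stayed within the spread between replicates (for counts of genes by pattern, within 1.5 times), 26 moved beyond it and 4 reversed. That spread was wide for covered length, so kb values within it still differed several-fold. Of the single-gene covered lengths 289 kept their sign, 26 fell to 0 and 36 reversed. The values that stayed or kept their sign include those of the replicate block, which are the same by construction. The cause of each shift was not tested. The values below are numbers of genes, kb for all 9 genes and bp for single genes. The share of all genes with the same promoter pattern was computed only for the full lists with all libraries. It was 65.6% for both germ-free but neither E. coli library and 61.9% for both conventional but neither E. coli library. The pattern counts below thus have no background of their own setting, and nothing about the 9 genes is read from them.

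At a -log10 q of 5 or more, conventional minus germ-free was 1.5 genes and conventional minus E. coli 6.5. Then 2 genes had promoter intervals in both germ-free but no E. coli libraries and 3 in both conventional but no E. coli libraries. At that threshold the germ-free lists called 5.1% and 18.2% of protein-coding genes, the E. coli lists 1.8% and 0.667% and the conventional lists 4.79% and 18.1%. At a fold of 5 or more, conventional minus germ-free was 0.5 genes, and 3 genes were in both conventional but no E. coli libraries. The shares of protein-coding genes called were then 10.7% and 29.4%, 4.48% and 1.71%, and 7.28% and 31%. Pls1, conventional minus germ-free, reversed to 117.0 bp and 228.0 bp under these thresholds. It was 9 bp within 1 kb of a start site, where Cdhr5 was -60.5 and Ush1c 143.0 bp, and within 2.5 kb Cdhr5 was -33.5 bp.

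With 870 intervals per list, E. coli minus germ-free was -1.5, conventional minus germ-free -1.5 and conventional minus E. coli 0 genes, and the last was 0.908 kb. Promoter intervals were then held by 1 gene in both germ-free but no E. coli libraries, 1 in both germ-free but no conventional libraries and 1 in both conventional but no E. coli libraries. Reversed were Cdhr2, E. coli minus germ-free (73.5 bp), Pls1, conventional minus germ-free (135.5 bp), and, for conventional minus E. coli, Ezr (-57.5), Myo1a (-232.5) and Cdhr2 (-73.5 bp). The treatments of ties were added after the data were seen, and they leave the lists unequal in length. With ties kept, the 3 differences were -2, 0.5 and 2.5 genes, conventional minus E. coli was 2.23 kb, and the counts were 1, 1 and 2. Cdhr2 was 73.5 bp for E. coli minus germ-free, 73 bp for conventional minus germ-free and -0.5 bp for conventional minus E. coli, Pls1 237.0 bp and Myo1a -232.5 bp. With ties left out, they were -1.5, -1.5 and 0 genes, 0.388 kb and counts of 1, 1 and 1, and 1 gene, Ezr, was in both E. coli and neither conventional library. Cdhr2 was 73.5 and -73.5 bp, Pls1 135.5 bp and Ezr -809.5 bp.

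Leaving out 1 library, E. coli minus germ-free ranged from -5 to -3 genes and from -25.9 to -4.01 kb, conventional minus E. coli from 4 to 6 genes and from 3.41 to 16.7 kb, and conventional minus germ-free stayed at 1 gene but ranged from -15.8 to 6.04 kb. It was 6.04 kb without germ-free replicate 2 and 1.76 kb without conventional replicate 1, against -4.88 kb with all libraries. Genes in both germ-free but no E. coli libraries ranged from 4 to 5, and in both conventional but no E. coli libraries from 5 to 6. For E. coli minus germ-free, Myo1a ranged from -1114.5 to 38.5 and Cdhr2 from -2629.5 to 0.5 bp. For conventional minus germ-free, Vil1 ranged from -261.5 to 534.5, Pls1 from -1298.5 to 879.5, Eps8 from -8768.5 to 467.5, Ezr from -3666.5 to 555.5, Myo1a from -709.0 to 444.0, Cdhr2 from -1685.5 to 944.5, Cdhr5 from -812.0 to 892.0 and Ush1c from -628.5 to 454.5 bp. Myo1a, conventional minus E. coli, ranged from -59.5 to 870.5 bp.

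The replicate block gives the same mean differences by construction (-4, 1 and 5 genes and -14.9, -4.88 and 10.1 kb), so this is no check of them. With 2 libraries a group its exact permutation allows no p under 0.5, so none of the 27 gene tests could pass 0.05. The labels do not say what a replicate number marks, and deviations of same-numbered libraries correlated at 0.093, 0.09 and 0.099 over 9700 genes, under the 0.1 taken to pair them.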

Other observations

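Several stretches near the members, some of them of the promoter class, were called in both of the longest lists and no other. An interval upstream of Ezr, in the merged region chr17:6797955-6798173, lay between -15393 and -15175 bp from the start site in germ-free replicate 2 and conventional replicate 2. Another, in chr13:54695213-54695489, lay between -6250 and -5974 bp from the Cdhr2 start site in the same 2 libraries and was also assigned to Rnf44. A region at chr7:141277186-141278196 lay between -1410 and -400 bp from the Cdhr5 start site. Of the 11 merged regions called in exactly 2 libraries, 10 were of this kind, and the exception was the Espn promoter region.

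Germ-free replicate 2 held goblet cell markers at 4 of 7 promoters (Muc2, Tff3, Agr2 and Spdef), conventional replicate 2 at 2 (Tff3 and Fcgbp), conventional replicate 1 at 1 (Fcgbp) and the other 3 libraries at 0. Sis, the sucrase of the brush border, had a promoter interval in both conventional libraries and in no other, and Alpi, the intestinal alkaline phosphatase, in conventional replicate 2 alone. Other enterocyte markers did not follow this: Anpep was called in every library, Fabp2 in all but E. coli replicate 2 and Slc5a1 in all but germ-free replicate 1. Apoa1 was called in germ-free replicate 2 and both conventional libraries. Over all genes with a promoter interval in both conventional libraries, 3.25% had one in neither germ-free library.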
